A study of Mus musculus with 2 samples.

Results

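The genes described here encode 51 subunits of the chromatin complexes Polycomb, SWI/SNF and NuRD, chosen as a list of named subunits and matched by symbol among the 52366 genes of the table. All 51 were present, and 35 of them passed the filter on low counts and were tested. Of the 35, 8 were higher and 14 were lower in 2CB and 4CB than in 1C and 8CB pseudoblastocysts (22.9% and 40%, against 31.3% and 24% of all 5940 genes tested). The lower group contained the core of the methyltransferase complex PRC2, and its most reduced member was Suz12. The higher group contained the PRC2 accessory subunits Mtf2 and Jarid2 and the NuRD subunits Mta1, Chd3, Mbd2 and Mbd3. These NuRD subunits were low in 1C and 8CB and passed the filter through 2CB and 4CB, where they were high. When all embryos were thinned to the lowest total, over the same genes, 7 members were higher and 8 lower (24.4% and 19.3% of all genes), and Eed, Chd3, Smarca4, Smarcc1, Smarcd2, Dpf2 and Brd9 lost their calls.

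RNA was measured in 24 single mouse embryos, 6 in each of 4 groups. All were made by in vitro fertilization of B6D2F1 oocytes (donors 8 to 9 weeks old) with ICR sperm (donors 15 to 20 weeks old), and all had their zona pellucida, the coat of the egg, removed with a protease. 1C embryos grew from whole zygotes stripped at 5 h post insemination (hpi), 2CB embryos from 1 blastomere isolated at the two-cell stage at 24 hpi, and 4CB and 8CB embryos from 1 blastomere isolated at the four-cell or eight-cell stage, both at 48 hpi. All were cultured to 96 hpi, and were called pseudoblastocysts because they had a cavity and were not checked for an inner cell mass. The labels give the libraries as 2 pools, 1 of 1C with 8CB and 1 of 2CB with 4CB, so that pool and group cannot be told apart wherever 2CB or 4CB is compared with 1C or 8CB. Which blastomeres shared a parental embryo is not given.

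Polycomb proteins keep developmental genes silent. PRC2 methylates histone H3 at lysine 27 and PRC1 attaches ubiquitin to histone H2A, and in the early embryo both marks are laid down as the first lineages are chosen. SWI/SNF complexes use ATP to slide or evict nucleosomes and are needed in the early embryo. NuRD couples such remodelling to the removal of acetyl groups from histones, which in pluripotent cells helps the exit from the undifferentiated state. Each complex is built from families of related subunits that replace one another, so the RNA of each paralog is given separately.

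The promoters of the PRC2 subunits that were called, and of Mta1, are shown first, because Suz12, Ezh2, Eed and Rbbp7 were lower and Mtf2 and Jarid2 were higher, and Mta1 had the largest fold change of the 35. RefSeq promoters of build GRCm38.p6 were given for 42 of the 51 members, in 54 windows. Pcgf1, Hdac1, Rybp, Mta3, Chd3, Arid2, Smarce1, Mbd2 and Cbx2 were without an entry. Each line gives the 150 bases before the start of transcription, 5′ to 3′ along the gene, and capitals mark motifs read on both strands. The motifs searched were the GC box with the letters GGGCGG, the pentamer CCAAT of the box of that name, the core CCGGAAG of sites for ETS factors, and the E2F site as TTTGGCGC, TTTCGCGC, TTTCCCGC, TTTGCCGC, TTCCCGCC or TTGGCGGG, some of which can overlap a GC box.
Suz12, chr11:79992956-79993105, + strand: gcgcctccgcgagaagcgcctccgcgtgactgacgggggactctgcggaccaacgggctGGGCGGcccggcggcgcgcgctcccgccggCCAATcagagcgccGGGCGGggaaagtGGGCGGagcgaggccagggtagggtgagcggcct
Ezh2, chr6:47595031-47595180, - strand: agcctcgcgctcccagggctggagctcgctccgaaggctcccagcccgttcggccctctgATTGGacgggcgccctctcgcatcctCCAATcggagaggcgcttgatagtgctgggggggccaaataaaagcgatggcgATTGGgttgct
Eed, chr7:89980977-89981126, - strand: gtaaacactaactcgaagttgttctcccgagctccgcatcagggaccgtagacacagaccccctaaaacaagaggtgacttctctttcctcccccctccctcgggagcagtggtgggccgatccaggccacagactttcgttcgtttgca
Rbbp7, chrX:162760222-162760371, + strand: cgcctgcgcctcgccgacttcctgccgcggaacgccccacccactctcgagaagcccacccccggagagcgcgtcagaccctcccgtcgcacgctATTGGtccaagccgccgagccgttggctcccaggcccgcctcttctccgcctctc
Mtf2, chr5:108065524-108065673, + strand: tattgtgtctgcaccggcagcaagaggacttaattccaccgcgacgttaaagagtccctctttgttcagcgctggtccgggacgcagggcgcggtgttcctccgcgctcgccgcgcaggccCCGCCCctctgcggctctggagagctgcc
Jarid2, chr13:44730624-44730773, + strand: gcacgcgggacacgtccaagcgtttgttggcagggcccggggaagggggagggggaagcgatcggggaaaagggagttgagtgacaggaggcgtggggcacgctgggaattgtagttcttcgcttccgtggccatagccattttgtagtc
Mta1, chr12:113098128-113098277, + strand: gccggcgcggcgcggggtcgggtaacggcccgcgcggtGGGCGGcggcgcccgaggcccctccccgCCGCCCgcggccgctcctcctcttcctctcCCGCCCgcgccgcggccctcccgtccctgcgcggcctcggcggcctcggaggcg

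For Mtf2 and Jarid2, which have 2 listed starts each, the first is shown. The Suz12 window held 3 GC boxes and 1 CCAAT box, the Ezh2 window 3 CCAAT boxes and the Rbbp7 window 1 CCAAT box. The Mta1 window held 3 GC boxes and the Mtf2 window 1, and the Eed and Jarid2 windows held none of the 4 motifs. A GC box was in 38 of the 54 member windows (70.4%, against 28.6% of all 32851 windows of this length), a CCAAT box in 13 (24.1%, against 24.5%), an ETS motif in 6 (11.1%, against 5.5%) and an E2F motif in 3 (5.6%, against 2.7%). Among called members with a promoter, a GC box was in 3 of 6 that were higher and 9 of 13 that were lower, and a CCAAT box was in 2 of 6 and 5 of 13. A match here is a description of the letters.

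Expression is given in CPM, the unique molecular identifier (UMI) counts of a gene scaled to a common total of UMIs in each embryo. A UMI marks 1 captured RNA molecule, read at its 3′ end whatever its length. Total UMIs per embryo ranged from 70941 to 1507471, with medians of 244312 in 1C and 313283 in 8CB, against 519932 in 2CB and 216325 in 4CB. Between 38 and 50 of the 51 members had at least 1 UMI in an embryo. All 37 mitochondrial genes of the table were at 0. A difference was called at an adjusted p below 0.1 in edgeR's quasi-likelihood test, adjusted over the 5940 genes tested. In that test 31.3% of all genes were higher and 24% were lower in 2CB and 4CB than in 1C and 8CB, so differences were common across the transcriptome, and the median log2 fold change of all genes was 0.12. Among the 35 members, 22.9% were higher, 40% were lower, and their median log2 fold change was -0.23. Because an embryo was sequenced whole, fewer cells of a type and less RNA per cell cannot be told apart in any value below.

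**Figure D1:**
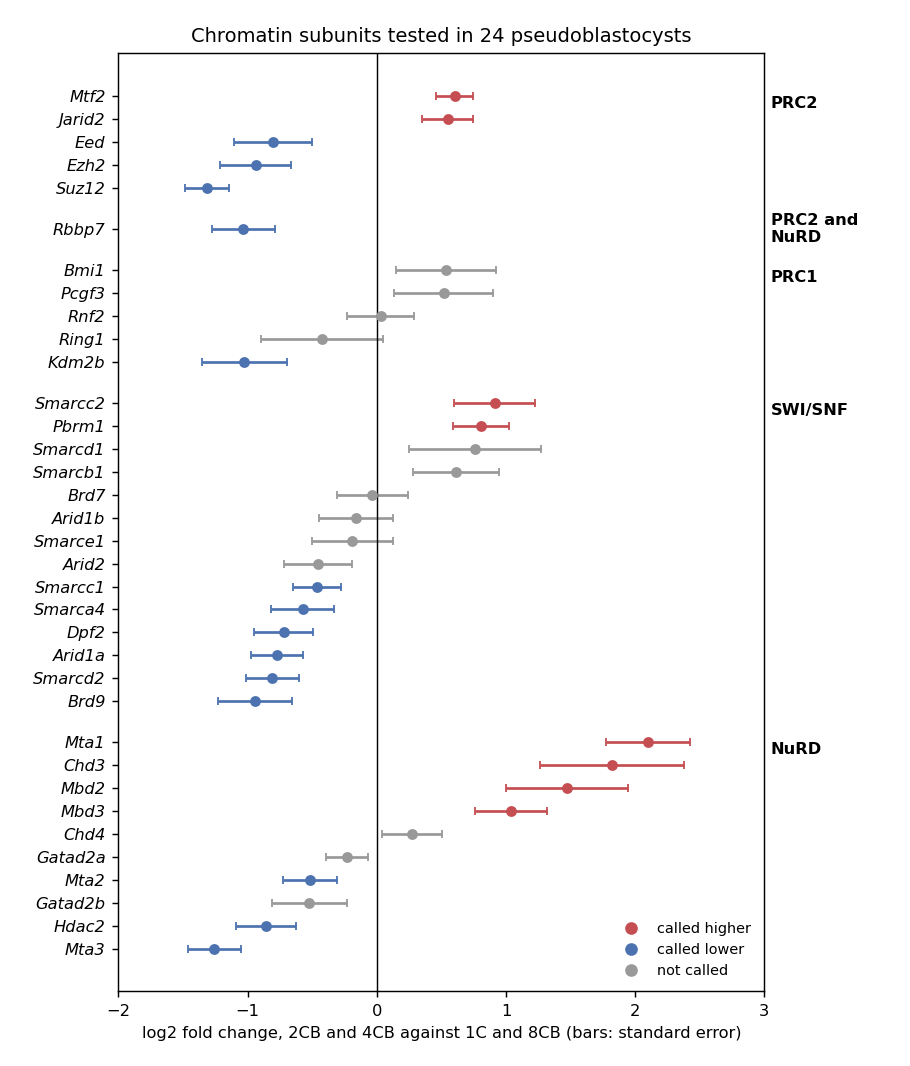
Log2 fold changes of the 35 tested subunits (x axis, 2CB and 4CB against 1C and 8CB, 12 embryos on each side) by complex, with points for the estimate, bars for the standard error and colours for the call. The 3 catalytic and scaffold subunits of PRC2 and Rbbp7 lie left of 0 and Mtf2 and Jarid2 right of it, and NuRD spans from Mta3 at -1.26 to Mta1 at 2.10.

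All 5 tested subunits of the PRC2 list and the histone-binding Rbbp7, which PRC2 shares with NuRD, were called, 4 lower and 2 higher. Of all genes tested, 55.3% were called either way. Suz12, the scaffold of PRC2 (ENSMUSG00000017548.15, chromosome 11, 79993106 to 80034123 in the GRCm38 coordinates of the table), ranged from 658 to 1049.9 CPM (median 902) in 1C, from 364 to 832 CPM (median 609) in 8CB, from 197 to 449 CPM (median 232) in 2CB and from 191 to 421 CPM (median 342) in 4CB. Every 2CB embryo but 1 lay below all 1C and 8CB embryos, and the sides overlapped only through that embryo, the upper 2 embryos of 4CB and the lowest of 8CB. The mean was 298 ± 88.4 CPM (SD, n = 12) in 2CB and 4CB and 743 ± 204 in 1C and 8CB (log2 fold change -1.31 ± 0.17, adjusted p = 2.67e-07). Here and below, the error of a log2 fold change is its standard error.

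Ezh2, the main methyltransferase of the complex, ranged from 121 to 305 CPM (median 209) in 1C, from 62.3 to 239.6 CPM (median 103) in 8CB, from 49.1 to 135 CPM (median 78.1) in 2CB and from 22.6 to 134 CPM (median 99.2) in 4CB. The 1C embryos had the highest median, the 8CB embryos reached down among the others, and the difference was -0.94 ± 0.27 on the log2 scale (adjusted p = 0.00551). Eed, which binds the methyl mark and stimulates the enzyme, ranged from 16.2 to 147 CPM (median 72.5) in 1C, from 56.4 to 85.3 CPM (median 73.2) in 8CB, from 7.62 to 86.7 CPM (median 51.1) in 2CB and from 30.1 to 44.7 CPM (median 38.2) in 4CB. Every 4CB embryo lay below every 8CB embryo, the 1C and 2CB embryos spread over a wider range, and the log2 fold change was -0.80 ± 0.30 (adjusted p = 0.0281). Eed was not called when thinned over the same genes (-0.46, adjusted p = 0.377) or in 2CB alone against 1C and 8CB (-0.53, adjusted p = 0.246). For Rbbp7 the range ran from 104 to 285 CPM (median 175) in 1C, from 141 to 299.9 CPM (median 255) in 8CB, from 68.3 to 105 CPM (median 89.0) in 2CB and from 26.4 to 289.9 CPM (median 119) in 4CB, with a log2 fold change of -1.03 ± 0.25 (adjusted p = 0.000943). All 2CB embryos but the highest lay below every 1C and 8CB embryo, and 1 4CB embryo lay above every 1C embryo.

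Mtf2 and Jarid2 went the other way. Mtf2, a Polycomb-like protein that brings PRC2 to unmethylated CpG islands, ranged from 249 to 507 CPM (median 376) in 1C, from 367 to 614 CPM (median 463) in 8CB, from 543 to 693 CPM (median 612) in 2CB and from 488 to 849 CPM (median 687) in 4CB. It had the smallest standard error of the 35, the 2CB embryos stood above all 1C embryos, and the log2 fold change was 0.60 ± 0.14 (adjusted p = 0.00105). Jarid2, a DNA-binding cofactor of another form of PRC2, ranged from 819.7 to 2128 CPM (median 1478) in 1C, from 606 to 2143 CPM (median 911) in 8CB, from 949.9 to 2406 CPM (median 1715) in 2CB and from 1031 to 2504 CPM (median 2187) in 4CB. The groups overlapped over most of their ranges, and the log2 fold change was 0.55 ± 0.20 (adjusted p = 0.0245). In 2CB alone it was not called (0.47, adjusted p = 0.122).

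**Figure D2:**
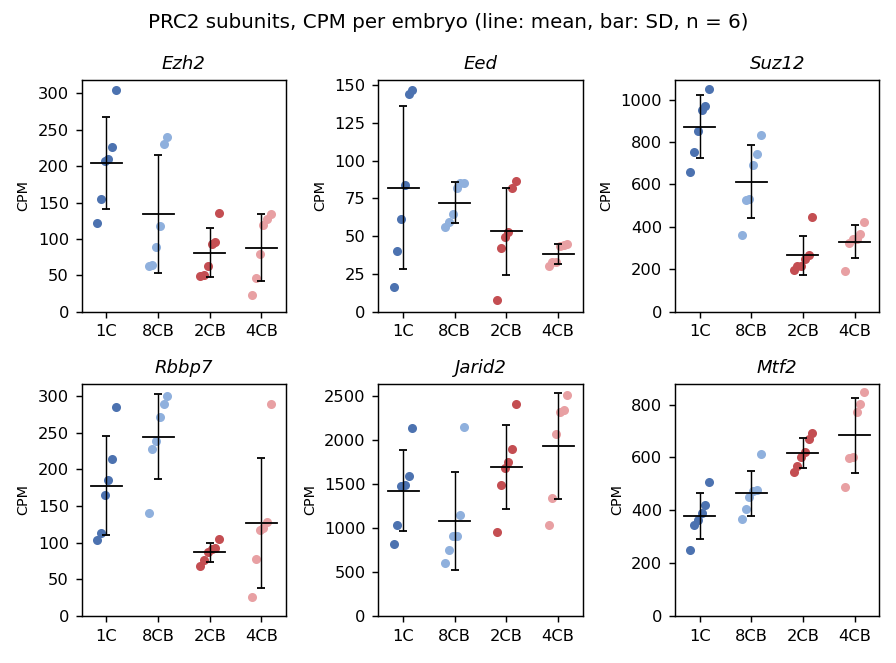
CPM of 6 PRC2 subunits in each embryo (y axis), by group, with 1 point per embryo, a line at the mean and a bar for the SD (n = 6). Suz12, Ezh2, Eed and Rbbp7 have lower means in 2CB and 4CB than in 1C and 8CB, and Jarid2 and Mtf2 higher means.

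The other 4 PRC2 members did not reach the filter. Summed over the 6 embryos of 1C, 8CB, 2CB and 4CB in that order, Ezh1, the second methyltransferase, had 21, 22, 55 and 36 UMIs. Phf1 and Phf19, the other Polycomb-like proteins, had 10, 23, 24 and 21 and 0, 3, 8 and 15, and Rbbp4, the paralog of Rbbp7, had 71, 20, 56 and 12. With no filter on low counts, where 23.8% of 23171 genes were called, Rbbp4 was called lower in 2CB and 4CB (log2 fold change -1.67, adjusted p = 0.00475) and Ezh1, Phf1 and Phf19 were not called. Ezh1 made up 6.5% ± 6.13 (SD, n = 6) of the Ezh1 and Ezh2 UMIs of an embryo in 1C and 11.9% ± 7.71 in 8CB, against 12.9% ± 6.6 in 2CB and 19.3% ± 12.8 in 4CB, with overlapping groups. Of 3 further PRC2 cofactors from a second list, all were called. Epop, a partner of the Mtf2 form, was higher (1.20 ± 0.34), as was Lcor (1.01 ± 0.37), whose locus also encodes the PRC2 partner PALI1, and Aebp2, a partner of the Jarid2 form, was lower (-0.76 ± 0.22).

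Of the 12 PRC1 members, only 5 were tested, 0 were higher and 1 was lower, where 55.3% of all genes were called either way. The lower count was 1 or 2 with 1 embryo left out, since Pcgf1 then passed the filter and was called lower in 19 of 24 cases. With all embryos the lower member was Kdm2b, which brings a variant PRC1 to CpG islands. It ranged from 34.6 to 154 CPM (median 47.7) in 1C, from 12.5 to 76.8 CPM (median 38.2) in 8CB, from 11.3 to 41.7 CPM (median 24.9) in 2CB and from 15.1 to 59.3 CPM (median 23.5) in 4CB, with the 2 sides overlapping, and its log2 fold change was -1.03 ± 0.33 (adjusted p = 0.0113). Without the 4 shallowest embryos, 2 of 1C and 2 of 8CB, which had the 4 highest values of Kdm2b, it was at -0.57 (adjusted p = 0.151). The ubiquitin ligases Rnf2 and Ring1 had log2 fold changes of 0.03 ± 0.26 and -0.42 ± 0.48, and the ring-finger partners Bmi1 and Pcgf3 had 0.54 ± 0.39 and 0.52 ± 0.38. None of these 4 passed the test, with adjusted p between 0.257 and 0.937. Rnf2 was at 124 ± 57.7 CPM in 1C and 196 ± 103 in 8CB, against 157 ± 73.0 in 2CB and 167 ± 58.9 in 4CB (mean ± SD, n = 6), and Ring1 made up between 11.2% ± 7.66 (2CB) and 17.7% ± 23.6 (8CB) of the UMIs of the ligase pair.

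Another 7 PRC1 members did not reach the filter. In 1C, 8CB, 2CB and 4CB, the ring-finger proteins Pcgf1, Pcgf5 and Pcgf6 had 29, 43, 22 and 19, then 28, 22, 67 and 59, then 16, 23, 36 and 12 UMIs. The chromodomain proteins Cbx2, Cbx7 and Cbx8, which read the PRC2 mark, had 14, 5, 58 and 40, then 7, 7, 16 and 9, then 4, 9, 39 and 19. Rybp, the partner of variant PRC1, had 34, 19, 53 and 37. With no filter, Pcgf1 was called lower (log2 fold change -1.62, adjusted p = 0.00779), and Cbx2 (1.31, adjusted p = 0.106) and the remaining 5 were not called. From the second list, 7 of 15 further PRC1 subunits were tested and 3 were higher, namely Auts2 (2.12 ± 0.27), Scmh1 (1.75 ± 0.40) and the ring-finger protein Pcgf2 (1.29 ± 0.51), and 0 were lower. Auts2, a subunit of a variant PRC1, was at 35.0 ± 8.05 CPM in 1C and 40.6 ± 32.4 in 8CB, against 148 ± 66.4 in 2CB and 173 ± 54.0 in 4CB.

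In SWI/SNF, 14 of 18 members were tested, 6 were lower and 2 were higher in 2CB and 4CB. Of all genes tested, 24% were lower and 31.3% higher, 55.3% either way. Leaving out 1 embryo at a time gave 2 to 4 higher, because Smarca2 then passed the filter and was called in 22 of 24 cases and Smarcb1 was called without embryo 1 of 1C or embryo 2 of 8CB. The lower members were subunits particular to the canonical and non-canonical forms of the complex and parts of the shared core. Arid1a, the DNA-binding subunit of the canonical form, BAF, ranged from 162 to 673 CPM (median 513) in 1C, from 243 to 469 CPM (median 421) in 8CB, from 183 to 326 CPM (median 234) in 2CB and from 178 to 369 CPM (median 279) in 4CB. Of the 2CB and 4CB embryos, 6 of 12 lay below the 8CB range, while 1 embryo of 1C lay below all of them, and the log2 fold change was -0.77 ± 0.20 (adjusted p = 0.00215). Dpf2, a histone reader of the same form, ranged from 97.1 to 361 CPM (median 184) in 1C, from 76.8 to 268 CPM (median 234) in 8CB, from 78.7 to 182 CPM (median 113) in 2CB and from 75.3 to 205 CPM (median 128) in 4CB, with 1 low embryo in 8CB, and had a log2 fold change of -0.72 ± 0.23 (adjusted p = 0.0106). Thinned to the lowest total, Dpf2 was not called, at -0.54 over the same genes (adjusted p = 0.121) and -0.50 over the genes then left (adjusted p = 0.117).

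Brd9, a bromodomain protein of the non-canonical form, ranged from 32.4 to 113 CPM (median 74.4) in 1C, from 44.8 to 167 CPM (median 115) in 8CB, from 29.2 to 93.1 CPM (median 65.5) in 2CB and from 6.38 to 72.5 CPM (median 40.3) in 4CB. The highest values were in 8CB and the lowest in 4CB, and the log2 fold change was -0.94 ± 0.29 (adjusted p = 0.00783). It was not called in 2CB alone (-0.52, adjusted p = 0.234) or when thinned over the same genes (-0.79, adjusted p = 0.115). Smarcd2, a core adaptor, ranged from 72.1 to 169.9 CPM (median 108) in 1C, from 77.8 to 154 CPM (median 117) in 8CB, from 38.5 to 86.7 CPM (median 68.1) in 2CB and from 51.0 to 98.8 CPM (median 61.3) in 4CB. The upper 2CB and 4CB embryos overlapped with the lower 1C and 8CB embryos, with a log2 fold change of -0.81 ± 0.20 (adjusted p = 0.0017), which thinning over the same genes brought to -0.51 (adjusted p = 0.190). The ATPase Smarca4 and the scaffold Smarcc1 had smaller differences, of -0.57 ± 0.24 (adjusted p = 0.0519) and -0.46 ± 0.19 (adjusted p = 0.0421), which were the calls most often lost under other settings.

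The 2 higher members were Smarcc2 and Pbrm1. Smarcc2, the paralog of the scaffold Smarcc1, ranged from 8.09 to 95.2 CPM (median 33.2) in 1C, from 37.4 to 131 CPM (median 48.6) in 8CB, from 67.7 to 171 CPM (median 123) in 2CB and from 43.9 to 171 CPM (median 119) in 4CB, and had a log2 fold change of 0.91 ± 0.31 (adjusted p = 0.0171). Its share of the UMIs of the scaffold pair was 14.1% ± 13.7 (SD, n = 6) in 1C and 21.2% ± 9.37 in 8CB, against 33.6% ± 10.4 in 2CB and 35.6% ± 10.5 in 4CB, and the groups overlapped. Pbrm1, the polybromo subunit that defines the PBAF form, ranged from 89.5 to 187 CPM (median 138) in 1C, from 34.2 to 169 CPM (median 97.7) in 8CB, from 135 to 209 CPM (median 165) in 2CB and from 172 to 336 CPM (median 227) in 4CB. The 4CB embryos were all above the highest 8CB embryo, and the log2 fold change was 0.80 ± 0.22 (adjusted p = 0.00312).

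**Figure D3:**
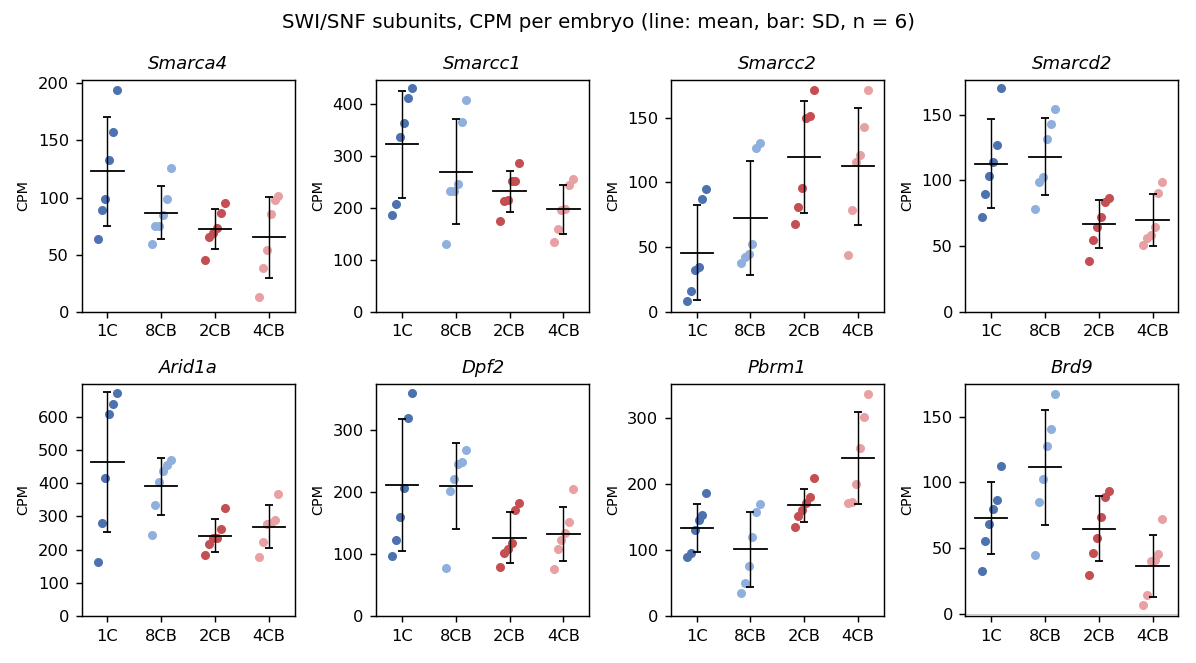
CPM of the 8 called SWI/SNF subunits in each embryo (y axis), by group, with 1 point per embryo, a line at the mean and a bar for the SD (n = 6). Smarcc2 and Pbrm1 have higher means in 2CB and 4CB and the other 6 have lower means, and in each panel the embryos of 2CB and 4CB overlap those of 1C and 8CB.

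Another 6 SWI/SNF members were tested and not called, with log2 fold changes from -0.45 ± 0.27 for Arid2 to 0.76 ± 0.51 for Smarcd1. Arid1b, the paralog of Arid1a, was at -0.16 ± 0.29, Brd7 and Arid2, which belong to PBAF like Pbrm1, at -0.03 ± 0.27 and -0.45 ± 0.27, and Smarce1 at -0.19 ± 0.31. Smarcb1, a core subunit, was at 0.61 ± 0.33. In 1C, 8CB, 2CB and 4CB, the second ATPase Smarca2 had 20, 8, 98 and 84 UMIs, the adaptor Smarcd3 had 3, 2, 2 and 0 and the PBAF subunit Phf10 had 1, 1, 9 and 2. Actl6a, an actin-related subunit, had 35, 16, 28 and 45. With no filter, Smarca2 was called higher (log2 fold change 1.45, adjusted p = 0.0172) and Smarcd3 lower (-2.05, adjusted p = 0.0728), while Phf10 and Actl6a were not called. Smarca2 made up 11.2% ± 12.6 of the UMIs of the ATPase pair in 1C and 8.21% ± 11.7 in 8CB, against 21.4% ± 7.86 in 2CB and 34.3% ± 19.2 in 4CB. These shares rest on as few as 6 UMIs of the pair in an embryo. Of 10 further SWI/SNF subunits, 4 were tested and 1, Bcl7a (-1.23 ± 0.50), was lower.

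NuRD held the 4 largest increases among the members tested, along with members that were lower. Mta1, Chd3, Mbd2 and Mbd3 were low in 1C and 8CB and passed the filter through 2CB and 4CB, where they were high. Their rank therefore depends on the filter. With no filter, 1 of the 16 untested members was called higher and 4 lower, where 23.8% of all genes were called. Of the 11 NuRD members, 10 were tested, 4 were higher and 3 were lower in 2CB and 4CB. With the shared Rbbp7 the lower count was 4. Of all genes tested, 31.3% were higher and 24% lower. The MTA scaffold proteins split. Mta1 (ENSMUSG00000021144.14, chromosome 12, 113098278 to 113137206) ranged from 6.86 to 24.3 CPM (median 16.7) in 1C, from 0 to 42.3 CPM (median 10.8) in 8CB, from 33.5 to 99.1 CPM (median 62.8) in 2CB and from 39.9 to 98.8 CPM (median 66.3) in 4CB. Only the highest 8CB embryo reached into the range of 2CB and 4CB, and the log2 fold change was 2.10 ± 0.32 (adjusted p = 4.45e-06). Mta3 (ENSMUSG00000055817.17, chromosome 17, 83706163 to 83821516) ranged from 2541 to 5905 CPM (median 3069) in 1C, from 3019 to 6335 CPM (median 3473) in 8CB, from 622 to 1920.0 CPM (median 1287) in 2CB and from 883 to 2833 CPM (median 1964) in 4CB. All 2CB embryos lay below all 1C and 8CB embryos, the highest 4CB embryo reached into the 1C range, and the log2 fold change was -1.26 ± 0.21 (adjusted p = 1.01e-05). Mta2 was lower by less (-0.52 ± 0.21, adjusted p = 0.0394), and was not called in 2CB alone (-0.49, adjusted p = 0.134).

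The observed share of Mta1 in the MTA family did not overlap between the 2 sides. Mta1 made up 0.126% to 0.809% of the UMIs of the 3 MTA genes in 1C embryos and 0% to 1.05% in 8CB, against 2.12% to 4.56% in 2CB and 1.62% to 4.76% in 4CB. The 8CB embryo without Mta1 had 447 MTA UMIs, where the limit of 3 counts is a share of 0.671% and the exact 95% upper limit is 0.822%. The highest 8CB share was 3 of 287 UMIs (exact 95% Clopper-Pearson interval 0.216% to 3.02%), and the lowest of 4CB 49 of 3024 (1.20% to 2.14%), so these 2 embryos could not be separated at this depth. The interval of that 8CB embryo also reached those of every other 4CB embryo and of some 2CB embryos. That of a 1C embryo with 3 of 371 UMIs (0.167% to 2.34%) reached that of a 2CB embryo with 22 of 1036 (1.34% to 3.20%). The sides were therefore apart in observed shares only. Such limits cover counting error only. Of 16 paralog shares computed, that of Mta1 was the only one without overlap. How often shares in other gene families are without overlap is not given here. Mta3 made up most of the family in every group, from 71.5% ± 9 (SD, n = 6) in 2CB and 78.4% ± 7.46 in 4CB to 83.3% ± 8.56 in 1C and 86.5% ± 5.3 in 8CB. In CPM, none of the 35 members separated all 2CB and 4CB embryos from all 1C and 8CB embryos, whereas 3.54% of all tested genes lay wholly above and 2.21% wholly below.

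The paralogs Mbd2, which binds methylated CpG, and Mbd3, which define alternative forms of NuRD, were both higher. Mbd3 ranged from 8.02 to 34.3 CPM (median 19.5) in 1C, from 8.53 to 58.9 CPM (median 23.6) in 8CB, from 32.5 to 60.4 CPM (median 43.1) in 2CB and from 25.4 to 76.6 CPM (median 70.1) in 4CB, with a log2 fold change of 1.04 ± 0.28 (adjusted p = 0.00269). Mbd2 ranged from 0 to 32.1 CPM (median 7.48) in 1C, from 0 to 22.9 CPM (median 13.1) in 8CB, from 10.2 to 49.5 CPM (median 33.9) in 2CB and from 0 to 43.3 CPM (median 27.8) in 4CB, with a log2 fold change of 1.47 ± 0.47 (adjusted p = 0.0108). For both genes the medians of 1C and 8CB were below those of 2CB and 4CB and the sides overlapped, with the highest 8CB embryo above 5 of 6 2CB embryos for Mbd3.

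The helicase Chd3 had 0 UMIs at this depth in 4 of 6 1C and 4 of 6 8CB embryos, and at least 1 in every 2CB and 4CB embryo. In total it had 17, 11, 109 and 94 UMIs in 1C, 8CB, 2CB and 4CB, and ranged from 0 to 35.0 CPM (median 0) in 1C, from 0 to 22.4 CPM (median 0) in 8CB, from 9.29 to 51.1 CPM (median 23.2) in 2CB and from 7.25 to 57.4 CPM (median 40.5) in 4CB. The log2 fold change was 1.82 ± 0.56 (adjusted p = 0.00793). With all embryos thinned to the lowest total, over the same genes, it was 0.78 (adjusted p = 0.403) and Chd3 was not called. Without embryo 5 of 1C it was 2.42 (adjusted p = 0.0013) and without embryo 1 of 8CB 2.44 (adjusted p = 0.00204). Its paralog Chd4 was not called (0.27 ± 0.23, adjusted p = 0.338), and was at 240.3 ± 109.7 CPM in 1C and 151 ± 70.5 in 8CB, against 216 ± 70.7 in 2CB and 242 ± 66.8 in 4CB (mean ± SD, n = 6).

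Hdac2, a deacetylase of the complex, was lower. It ranged from 356 to 1053 CPM (median 608) in 1C, from 522 to 1716 CPM (median 949) in 8CB, from 362 to 789 CPM (median 436) in 2CB and from 255 to 832 CPM (median 363) in 4CB. The 8CB embryos held the highest values, 1 embryo of 2CB and 1 of 4CB stood above the rest of their groups, and the log2 fold change was -0.86 ± 0.23 (adjusted p = 0.00279). The other deacetylase, Hdac1, had only 27, 35, 30 and 19 UMIs in 1C, 8CB, 2CB and 4CB and did not reach the filter. With no filter it was called lower (log2 fold change -1.29, adjusted p = 0.056). Hdac2 made up between 97.3% ± 1.81 (8CB) and 98.3% ± 1.02 (4CB) of the UMIs of the pair. The linkers Gatad2a and Gatad2b were not called (-0.23 ± 0.16 and -0.52 ± 0.29). Of 5 further NuRD subunits, 3 were tested, Pwwp2b (1.36 ± 0.34) and Cdk2ap2 (0.60 ± 0.27) were higher, and 0 were lower.

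**Figure D4:**
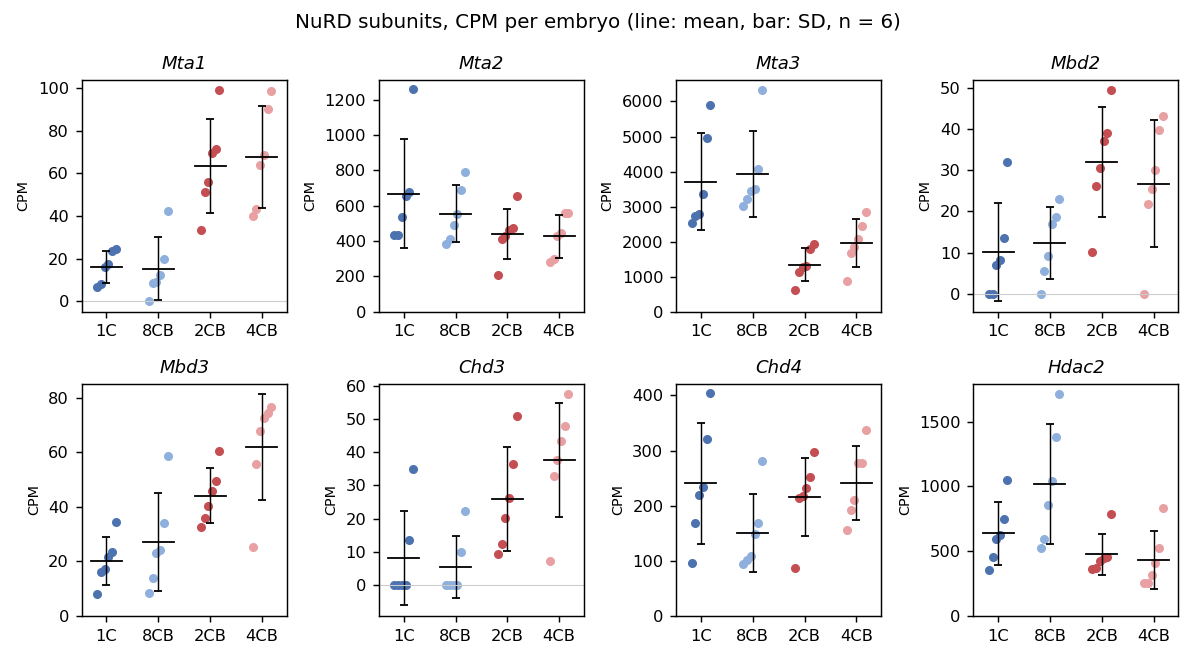
CPM of 8 NuRD subunits in each embryo (y axis), by group, with 1 point per embryo, a line at the mean and a bar for the SD (n = 6). Mta1, Mbd2, Mbd3 and Chd3 have higher means in 2CB and 4CB, Mta2, Mta3 and Hdac2 lower means, and Chd4 was not called.

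Summed over all 51 members, CPM was 11771 ± 1938 (SD, n = 6) in 1C and 11467 ± 1613 in 8CB, against 8011 ± 881 in 2CB and 9222 ± 875 in 4CB, and Mta3 alone made up much of the difference. The NuRD sum was 6273 ± 1566 in 1C and 6566 ± 1358 in 8CB against 3362 ± 623 in 2CB and 3954 ± 585 in 4CB. The sums of PRC2 (2976 ± 540.5, 2386 ± 720.2, 2727 ± 464 and 3101 ± 559 in the same order) and of PRC1 (374 ± 73.2, 432 ± 135, 348 ± 113 and 437 ± 48.5) differed between the sides by less than the SD. The PRC2 sum leaves out Rbbp4 and Rbbp7. Its largest part was Jarid2, which was higher and so offset the lower Suz12, Ezh2 and Eed. The SWI/SNF sum was 1931 ± 320.0, 1819 ± 375, 1476 ± 89.8 and 1598 ± 333.

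The pooled comparison was then taken apart into pairs of stages. In 2CB against 1C, 15 of 35 members were called (41.5% of all genes), in 4CB against 8CB 13 (40.2%), in 2CB against 8CB 11 (38.4%) and in 4CB against 1C 18 (40.9%). The first 2 pairs have no embryo in common. In both of them, Mtf2, Mta1 and Mbd3 were called higher and Suz12, Rbbp7, Smarcd2 and Mta3 lower, and 0 members were called in opposite directions. The other 2 pairs use the same embryos again, and of these 7 only Suz12, Smarcd2, Mta1 and Mta3 were called in them both. In 2CB against 8CB, Mtf2 (0.38 ± 0.20, adjusted p = 0.156) and Mbd3 (0.54 ± 0.38, adjusted p = 0.288) were not called, and in 4CB against 1C Rbbp7 (-0.52 ± 0.35, adjusted p = 0.262) was not. Suz12 was at -1.71 ± 0.24 on the log2 scale in 2CB against 1C and -0.91 ± 0.24 in 4CB against 8CB, Mta1 at 1.98 ± 0.44 and 2.22 ± 0.47, and Mta3 at -1.47 ± 0.29 and -1.05 ± 0.29. The 3 higher and 4 lower members are 8.57% and 11.4% of the 35, against 16.2% and 11% of the 5940 genes tested.

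Other members were called in only 1 of the 2 pairs. In 2CB against 1C these were Ezh2 (-1.32 ± 0.38), Kdm2b (-1.41 ± 0.45), Arid1a (-0.96 ± 0.28), Dpf2, Smarca4, Mta2, Smarcc2 (1.24 ± 0.44) and Mbd2 (1.91 ± 0.69), and in 4CB against 8CB they were Brd9 (-1.65 ± 0.42), Hdac2 (-1.29 ± 0.33), Eed (-0.98 ± 0.44), Jarid2 (0.83 ± 0.29), Pbrm1 (1.26 ± 0.32) and Chd3 (2.35 ± 0.82). The difference between the 2 pairs was tested for each member, and it was called for 0 of 35 in edgeR, as for 0% of all genes, with a lowest adjusted p of 0.474. At an unadjusted p below 0.05 there were 3 of 35 members, against 8.96% of all genes, and these were Brd9 (difference 1.41 ± 0.57 on the log2 scale), Suz12 (-0.80 ± 0.33) and Pbrm1 (-0.91 ± 0.44).

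**Figure D5:**
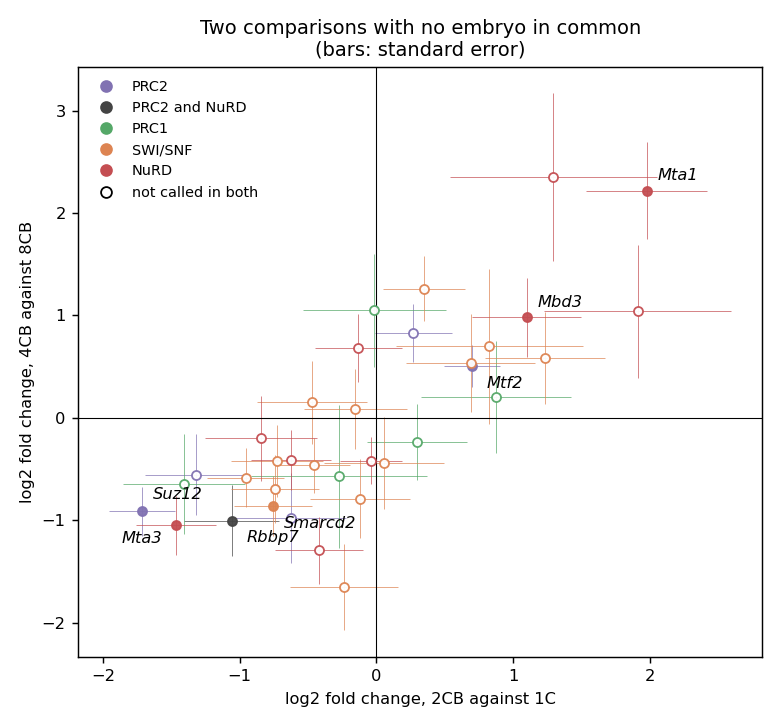
Log2 fold changes of the 35 tested subunits in 2CB against 1C (x axis) and 4CB against 8CB (y axis), which have no embryo in common, with bars for the standard error. Filled, named points were called in the same direction in both: Mta1, Mbd3 and Mtf2 at upper right, and Suz12, Mta3, Rbbp7 and Smarcd2 at lower left.

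Within a pool, no difference among the members was called. In 8CB against 1C, 0 of 35 members were called by edgeR or by DESeq2 (0% of all genes in edgeR and 0.724% in DESeq2), and 2 of 35 (5.71%) had an unadjusted p below 0.05, against 9.26% of all genes. They were Hdac2, at 0.71 ± 0.32 on the log2 scale (unadjusted p = 0.0356), and Suz12, at -0.51 ± 0.24 (unadjusted p = 0.0401). The next were Chd4 (-0.68 ± 0.33), Ezh2 (-0.67 ± 0.39) and Rnf2 (0.60 ± 0.37). In 4CB against 2CB, 0 of 35 were called by either tool (0.0337% of all genes in edgeR and 0.168% in DESeq2) and 1 of 35 (2.86%) had an unadjusted p below 0.05, against 4.43% of all genes. It was Brd9, at -0.85 ± 0.41 (unadjusted p = 0.0487), followed by Mta3 (0.52 ± 0.29), Pbrm1 (0.47 ± 0.29), Rbbp7 (0.54 ± 0.35) and Pcgf3 (0.79 ± 0.51). Mta1 was at -0.24 ± 0.52 in 8CB against 1C and 0.01 ± 0.39 in 4CB against 2CB, Mta3 was at 0.11 ± 0.29 in 8CB against 1C, and Suz12 was at 0.30 ± 0.24 in 4CB against 2CB.

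Other chromatin enzymes were counted from lists fixed with the members. Each count stands beside 31.3% higher and 24% lower, 55.3% either way, over all genes tested. Of the 17 tested among 33 further subunits of the same complexes, 7 were higher and 2 lower, as named above. Of 5 tested enzymes that counteract Polycomb, Asxl1, a partner of the H2A deubiquitinase, was higher (1.41 ± 0.36), and the H2A deubiquitinase Usp16 (-0.82 ± 0.25) and the H3 lysine 27 demethylase Kdm6b (-0.72 ± 0.21) were lower. Of 13 tested COMPASS genes, which methylate H3 at lysine 4, 3 were higher and 4 lower. Kmt2a, a methyltransferase, had 73, 13, 1451 and 854 UMIs in 1C, 8CB, 2CB and 4CB and a log2 fold change of 4.32 ± 0.54, and Wdr5, a shared subunit, had -1.84 ± 0.28. Of 14 tested genes of a list of other remodellers, of the ISWI, INO80 and CHD families with Smarcad1, 1 was higher (Chd2 of the CHD family, 0.88 ± 0.42) and 4 lower, with the ATPases Srcap (-1.29 ± 0.49) and Smarca5 (-1.16 ± 0.20) lowest.

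Lineage markers also differed in this comparison, in which 31.3% of all genes tested were higher and 24% lower. Of 10 tested trophectoderm markers 7 were higher and 1 lower, and their summed level was 686 to 1003 CPM in 1C and 858 to 1194 CPM in 8CB against 3112 to 5957 CPM in 2CB and 3229 to 6520.0 CPM in 4CB. Elf5 was at 0 in 11 of the 12 embryos of 1C and 8CB. Of 11 primitive endoderm markers 8 were tested, 6 higher and 1 lower, with sums of 729.5 to 1238 CPM, 682 to 1281 CPM, 1069.5 to 2995 CPM and 934 to 2203 CPM in 1C, 8CB, 2CB and 4CB. Of 10 epiblast and inner cell mass markers 7 were tested, 3 higher and 4 lower, with sums of 1331 to 2079 CPM, 1458 to 3033 CPM, 1142 to 2602 CPM and 1106 to 2827 CPM, and Pou5f1, a defining marker, had only 13 UMIs in all 1C and 8CB and 20 in all 2CB and 4CB embryos. How reads matching several places in the genome were treated is not given in the sources used here, and these counts are not read as its level. The sum of 8 stress genes, 4 of heat shock proteins with Atf3, Ddit3, Fos and Jun, was 271 to 1780.0 CPM in 4CB against 129 to 331 CPM in 1C, 136 to 359 CPM in 8CB and 170.2 to 324 CPM in 2CB, with the lowest 4CB embryo inside the other ranges. Of 8 cumulus cell markers, none passed the filter, and their sum was at most 16.0 CPM. With 2CB alone compared with 1C and 8CB, 7 members were higher and 9 lower, with 27.5% and 19.8% of all genes. The 4CB embryos stayed in that fit but had no weight in the comparison. The part of the lineage markers and stress genes in the differences of the subunits was not tested.

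Some counts could include RNA of another gene. Exons of 23 members overlap another gene in GENCODE M21, nearly all on the opposite strand, among them Suz12, Ezh2 and Eed with long non-coding genes, Mtf2 with Tmed5, Rbbp7 with Txlng, Pbrm1 with Gnl3 and Smarcc1 with Dhx30, and because the strand setting of the counting is not stated, the reads of such pairs cannot be told apart. Within the last 300 bases of the transcript, Kdm2b (100% over 289 bases), Rbbp7, Bmi1, Actl6a and Pcgf1 have a processed pseudogene at least 95% identical over at least 100 bases, so their counts are uncertain. Mta1, Mta3, Mbd2, Mbd3 and Hdac2 have neither.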

How the data were processed

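Single-embryo RNA was captured on a Fluidigm C1 and made into CEL-Seq2 libraries, which tag the 3′ end of each polyadenylated RNA with a UMI. The authors mapped the reads to GRCm38 (HISAT2) and obtained UMI counts with HTSeq 0.6.1, so the deposited values are raw UMI counts by gene and embryo. Their DESeq2 1.10.1 step came after, and is not contained in these counts. The header resembles that of featureCounts. The annotation release and the strand setting are not given in the sources used here. The largest count was 53029. Another 24 columns, named Morula, match no listed sample and were not used. No 2 embryo columns were identical.

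Gene symbols came from GENCODE M21 (51633 of 52366 genes). Each member had 1 identifier, and for 41 of the 51 the identifier with its version was in that release with the same start and end. Stages came from the column names and pools from the labels. Counts were scaled by TMM (factors 0.928 to 1.07), filtered with filterByExpr (5940 genes) and fitted in edgeR 4.0.16 with 1 mean per stage over all 24 embryos (limma 3.58.1, R 4.3.3). Quasi-likelihood tests used Benjamini-Hochberg adjusted p below 0.1 over all genes tested. They were also run on counts simulated without a pool effect, which cannot address the confounding with pool. The biological coefficient of variation was 0.442. Plain CPM used each embryo's total. Embryo numbers did not pair embryos across stages (36 pairs, mean correlation of deviations -0.0156, from -0.248 to 0.224). Embryos are separate, but which shared parents or a fertilization is not given, and p-values measure only the spread among these embryos.

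The members and lists were chosen with earlier results of these data known. Named were every called member in order of complex, with ranges for up to 6 per complex, every untested member with its UMIs, tested members that were not called as examples, up to 5 members by unadjusted p within a pool, and up to 4 genes each way from other lists. Alternatives were DESeq2 1.42.0, its size factors, other filters, thinning, a stricter threshold, a replicate block and leaving out embryos.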

Additional observations from a re-analysis of the deposited data

Results flagged for a closer look

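In 7 of 104 sets of 6 embryos examined (22 called subunits and 4 complex sums, by stage), 1 embryo stood apart from the other 5 by Dixon's criterion, where chance flags about 1 in 20. Embryo 5 of 2CB had 449 CPM of Suz12, against 197 to 268 in the others. Jarid2 was at 2143 CPM in embryo 6 of 8CB, against 606 to 1141. Dpf2 was low, at 76.8 CPM, in embryo 5 of 8CB, against 202 to 268. In embryo 2 of 2CB, Hdac2 was at 789 CPM, against 362 to 457, and the PRC1 sum was 572 CPM, against 272 to 328. Mta2 reached 1261 CPM in embryo 6 of 1C, against 435 to 679, and Mta3 reached 6335 CPM in embryo 1 of 8CB, against 3019 to 4065. No called subunit lost its call when any single embryo was left out.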

How the results depend on the processing

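The counts of 8 higher and 14 lower members stayed within 1.5 times under DESeq2 (9 and 14), its size factors in edgeR (8 and 14), no filter (9 and 17), a filter of 5 UMIs in 12 embryos (7 and 15), an adjusted p below 0.05 (8 and 13), a replicate block (8 and 15), although the numbers do not pair the embryos and 1 of 24 embryos correlated best with its own number, and leaving out each embryo in turn (8 to 10 and 14 to 17, with 0 within either pool throughout). Fewer members were called at lower depth. Thinned to the lowest total, which leaves fewer genes to test, 4 were higher and 7 lower. Thinned with the same genes tested as at full depth, 7 of 35 were higher and 8 lower, against 24.4% and 19.3% of all genes. In 2CB alone against 1C and 8CB, 7 were higher and 9 lower, against 27.5% and 19.8% of all genes, with fewer embryos in the comparison. For the other settings in this section the share of all genes is not given. Thinning on the same genes, 2CB alone and leaving out the 4 shallowest embryos, all of 1C or 8CB (9 and 13), were added after seeing the data. Suz12, Rbbp7, Ezh2, Mtf2, Arid1a, Hdac2, Mta1, Mta3, Mbd2, Mbd3, Pbrm1 and Smarcc2 kept their calls in every one of these settings in which they were tested, and of the 10 settings Smarcc1 lost its call in 5 and Smarca4, tested in 9, in 4 (at an adjusted p below 0.05 among them). Eed, Brd9 and Dpf2 lost theirs in 2 each and Chd3, Jarid2, Kdm2b, Mta2 and Smarcd2 in 1 each, at the lower depth or with fewer embryos compared. No called member changed direction.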
